A study of Homo sapiens with 6 samples.

Results

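Nuclear receptors are transcription factors of a single gene family, and 46 of their genes, listed by symbol, were followed here in breast cancer cells. A receptor gene was taken wherever the gene name of a row in the expression table equalled a listed symbol. All 46 symbols were found, each in 1 row, among 60569 gene names. Of the 46, 27 stood at 1 FPKM or above in 3 or more libraries and were tested for a difference between groups. FPKM is the number of sequenced fragments of a gene per unit of transcript length and of mapped fragments, so it can be compared between genes. The other 19 receptors were below that level and are given by their values only.

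The cells are labelled as MDA-MB-453, a human breast cancer line, and marker levels given below go against that label in part. Total RNA was sequenced from 3 libraries of cells transfected with a control vector and from 3 libraries of cells transfected with a construct that overexpresses ZNF207, a zinc finger protein of the mitotic spindle. The series describes the 3 libraries of each group as independent biological replicates and gives no time after transfection, no hormone treatment and no detail of the construct in the sources used here. ZNF207 stood at 69.2, 67.0 and 63.7 FPKM in control libraries 1, 2 and 3 and at 885, 786 and 750 FPKM in overexpression libraries 1, 2 and 3, so the groups did not overlap and the direction was that of the labels. By limma the log2 change of ZNF207 came to 3.58 with an adjusted p of 4.03e-09, and an exact two-sided permutation test gave p = 0.1, its lower limit with 3 libraries a group.

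Most nuclear receptors bind a small fat-soluble ligand, such as a steroid, a thyroid hormone, a retinoid, an oxysterol or a fatty acid, and the ligand decides which coregulator proteins they recruit. Others are called orphans because no physiological ligand is established for them. Receptors bind DNA as monomers, as homodimers or as heterodimers with a retinoid X receptor, and the unliganded or repressive state recruits corepressor complexes while the active state recruits coactivators. In breast tissue the oestrogen receptor is best known, because its presence defines a large class of breast tumours and makes them treatable with hormone therapy.

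What joins the family at the sequence level is a DNA-binding domain with a pair of zinc fingers. A short stretch at the end of the first finger, the P box, reads the bases of the response element. The coding sequence of the first finger, 69 bases long, was located in 1 annotated transcript of each receptor (GENCODE v29, GRCh38). The cysteine pattern of the first finger was found in 44 of 46 receptors, and the second finger was not sought. NR0B1 and NR0B2, receptors known to lack a DNA-binding domain, were the 2 without it. The sequences below belong to the receptors on which the values later turn, with the 18 bases that encode the 6 residues of the P box in capitals.

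ESR1: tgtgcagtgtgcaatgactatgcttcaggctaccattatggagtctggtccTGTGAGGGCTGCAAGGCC
ESRRA: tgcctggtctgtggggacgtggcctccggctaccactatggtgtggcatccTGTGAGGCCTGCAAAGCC
NR3C1: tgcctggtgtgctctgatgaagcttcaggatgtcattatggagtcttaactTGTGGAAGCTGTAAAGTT
RARA: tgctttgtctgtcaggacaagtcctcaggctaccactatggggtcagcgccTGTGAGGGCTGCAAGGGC
RARG: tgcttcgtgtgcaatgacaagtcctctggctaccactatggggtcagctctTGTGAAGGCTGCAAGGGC
VDR: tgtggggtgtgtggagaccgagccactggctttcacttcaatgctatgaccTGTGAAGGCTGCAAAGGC
RXRA: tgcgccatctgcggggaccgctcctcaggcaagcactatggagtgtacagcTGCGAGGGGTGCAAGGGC
RXRB: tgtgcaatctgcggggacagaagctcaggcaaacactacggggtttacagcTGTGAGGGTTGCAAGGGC
NR4A1: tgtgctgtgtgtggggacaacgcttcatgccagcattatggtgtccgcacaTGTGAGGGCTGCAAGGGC

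The ESR1 stretch lay at chr6:151842697-151842765 on the plus strand, in exon 3 of the transcript used. That of ESRRA lay at chr11:64307414-64307482, plus strand, in exon 2, and that of NR3C1 at chr5:143314024-143314092, minus strand, in exon 4. The VDR stretch was at chr12:47878976-47879044, minus strand, in exon 3, and the NR4A1 stretch at chr12:52055127-52055195, plus strand, also in exon 3. The other printed stretches each joined 2 exons, so their span holds an intron. These were RARA at chr17:40348399-40349786 on the plus strand and RARG at chr12:53215432-53215711 on the minus strand. RXRA lay at chr9:134408272-134408980 on the plus strand and RXRB at chr6:33197901-33198335 on the minus strand.

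The encoded P boxes fell into 9 kinds. The commonest was shared by 27 receptors, 21 of which passed the filter. Those included the retinoic acid, retinoid X, liver X and vitamin D receptors and the NR4A genes, and together they took 66.1% to 67.2% of the summed receptor FPKM in controls, and 65.1% to 67.3% with ZNF207. ESR1 and ESR2 shared a kind of their own, with 3.59% to 4.26% of receptor FPKM in controls, and 4.37% to 6.68% with ZNF207. NR3C1, NR3C2 and PGR shared another kind, with 6.80% to 7.63% in controls and 6.30% to 6.65% in overexpression libraries, nearly all of it from NR3C1. The COUP-TF genes NR2F1, NR2F2 and NR2F6 formed the one kind with several receptors in which every member passed the filter.

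Long identical stretches, over which fragments of related receptors could be confused, were not found. Between RARA and RARG 60 of the 69 finger bases were identical, and between RXRA and RXRB 57 were. RARA and RARG also shared the longest exact run of any pair of receptor transcripts, 39 bases, and of 1035 pairs 0 shared a run of 50 bases or more. Overlap with neighbouring genes was more common. In 20 of 46 receptors some exonic bases also belonged to another annotated gene, and whether the counting used strand is not given in the sources used here. THRA and NR1D1 overlap on opposite strands over 263 exonic bases. NR2C2 shared 1197 exonic bases with MRPS25 and RARA 556 with RARA-AS1, both on the opposite strand.

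Receptor levels in the control libraries spanned a wide range. The mean FPKM was 10 or more for 15 receptors, from 1 to 10 for 12, from 0.1 to 1 for 6, and above 0 but under 0.1 for 7. The remaining 6 were listed at 0 in all 3 controls. Summed over the family, receptors reached 453 to 474 FPKM in controls and 455 to 483 FPKM in the overexpression group. RARA, ESRRA, NR1H2, RXRA and NR2F6 alone made up 44.6% to 48.4% of that sum in each library.

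**Figure D1:**
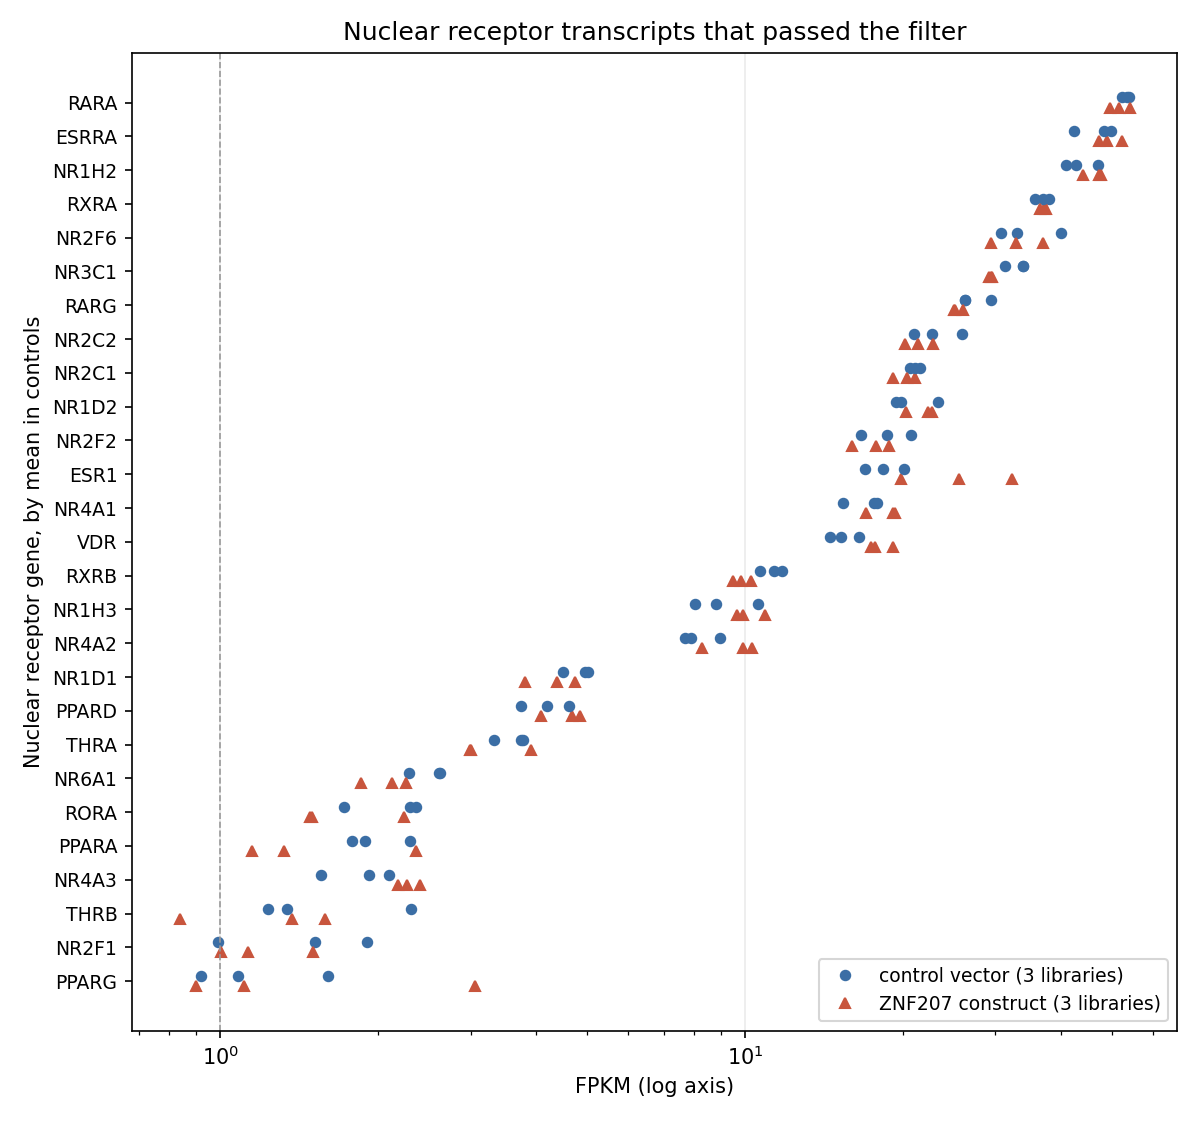
FPKM on a log axis for the 27 receptors that passed the filter, ordered by mean in controls, with circles for the 3 control libraries and triangles for the 3 overexpression libraries. The dashed line marks 1 FPKM, and the RARA mean in controls was 44.3 times that of PPARG, the lowest receptor plotted.

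RARA, the retinoic acid receptor alpha, was the most abundant at 52.4, 54.1 and 53.5 FPKM in control libraries 1, 2 and 3. Next came ESRRA, an orphan receptor that drives mitochondrial genes, at 42.4, 50.0 and 48.3 FPKM, and NR1H2, the liver X receptor beta, at 40.9, 47.0 and 42.7 FPKM. The control ranges of ESRRA and NR1H2 overlapped, while RARA lay above both. RXRA, the common heterodimer partner, was at 35.7, 38.0 and 37.0 FPKM. Of 26 neighbouring pairs in the order of the tested receptors, 18 had overlapping control ranges, so most adjacent ranks were not separated by these libraries. The order was nearly kept in the overexpression libraries: 20 of 27 receptors held their rank or moved by 1 place, 11 of the 12 highest stayed among the 12 highest, and ESR1 made the largest move, 5 places up.

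Across the tested receptors no difference between groups passed the test. By limma 0 of 27 had an adjusted p under 0.05, where 28 of 13185 genes did over the whole table (0.212%). Adjusted p-values of the receptors ran from 0.269 to 0.987. At an unadjusted p under 0.05 there were 3 receptors, 11.1% of those tested, and 12.1% of all tested genes were at that level. The 2 higher ones were ESR1 and VDR, against 5.08% of all genes in that direction, and the lower one was NR3C1, against 7.03%. Groups did not overlap for 6 receptors, 22.2%, against 18.0% of all genes, with VDR and NR4A3 higher and NR3C1, RXRB, RARG and NR6A1 lower in overexpression libraries. These shares lay near those of the whole table.

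Changes were small in both directions. They are log2 differences of FPKM + 1, overexpression minus control, a scale that understates the change of genes near 1 FPKM. They ran from -0.22 for PPARA to 0.44 for ESR1, with 12 above 0 and 15 below 0. The median change was -0.06, beside -0.01 over all tested genes, and the median size regardless of direction was 0.13, beside 0.09. In 10 receptors the change was no larger than 0.1 either way. The 95% confidence intervals reached 0.12 to 0.62 to each side of the estimate, and for 20 of 27 receptors the interval lay within 0.5 of 0. For those 20 a change beyond 0.5 either way lay outside the interval, and for the others such a change lay partly inside it.

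**Figure D2:**
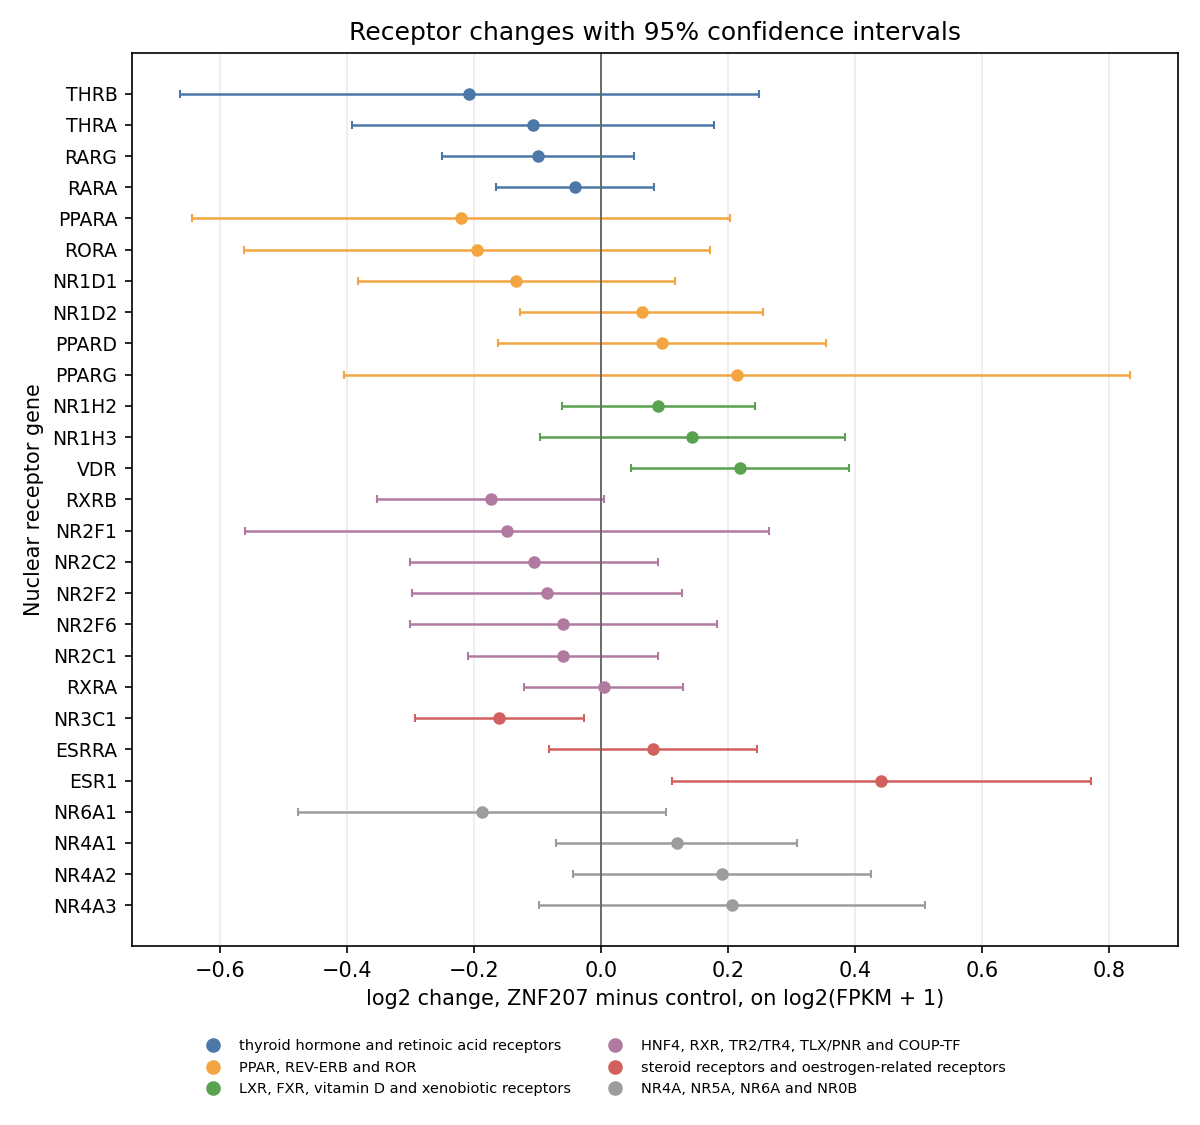
Log2 change of FPKM + 1, overexpression minus control, with its 95% confidence interval from limma for each of the 27 tested receptors, coloured by subfamily group and ordered by change within it. The intervals of ESR1, VDR and NR3C1 leave out 0, and those of the low receptors PPARG, THRB and PPARA are among the widest.

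The steroid receptors and their orphan relatives included the receptor with the largest estimate. ESR1, the oestrogen receptor alpha, stood at 18.4, 16.9 and 20.1 FPKM in control libraries 1, 2 and 3 and at 19.8, 25.6 and 32.2 FPKM in overexpression libraries 1, 2 and 3. Overexpression library 1 lay inside the control range and the other two lay above it, so the groups overlapped. The means were 18.5 ± 1.59 and 25.9 ± 6.21 FPKM (SD, n = 3 each) and the log2 change was 0.44 (SE 0.15, 95% interval 0.11 to 0.77, limma adjusted p = 0.269). One library carried much of it: without overexpression replicate 3 the change was 0.28 (adjusted p = 0.55).

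ESR2, the oestrogen receptor beta, was nearly undetected, at 0.0816, 0.0647 and 0.0651 FPKM in controls and 0.0997, 0.0442 and 0.0315 FPKM in overexpression libraries. PGR, the progesterone receptor and a classical oestrogen target, was at 0.191, 0.206 and 0.246 FPKM in controls and 0.290, 0.0781 and 0.118 FPKM in overexpression libraries. Both groups thus overlapped for both genes, far below ESR1. ESRRA was at 49.1, 52.3 and 47.4 FPKM in overexpression libraries, against controls of 42.4 to 50.0 FPKM, a log2 change of 0.08 (adjusted p = 0.705). The ratio of ESRRA to ESR1 ran from 2.31 to 2.95 in controls and from 1.47 to 2.48 in overexpression libraries.

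NR3C1, the glucocorticoid receptor, stood at 33.8, 31.4 and 33.9 FPKM in controls and at 29.2, 29.6 and 29.5 FPKM in overexpression libraries. Every overexpression library lay below every control, and the overexpression values were closer to each other than the controls were. The log2 change was -0.16 (SE 0.06, 95% interval -0.29 to -0.03, adjusted p = 0.321). NR3C2, the mineralocorticoid receptor, did not reach 1 FPKM in any library, with 0.564, 0.624 and 0.969 FPKM in controls and 0.807, 0.757 and 0.840 FPKM in overexpression libraries.

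**Figure D3:**
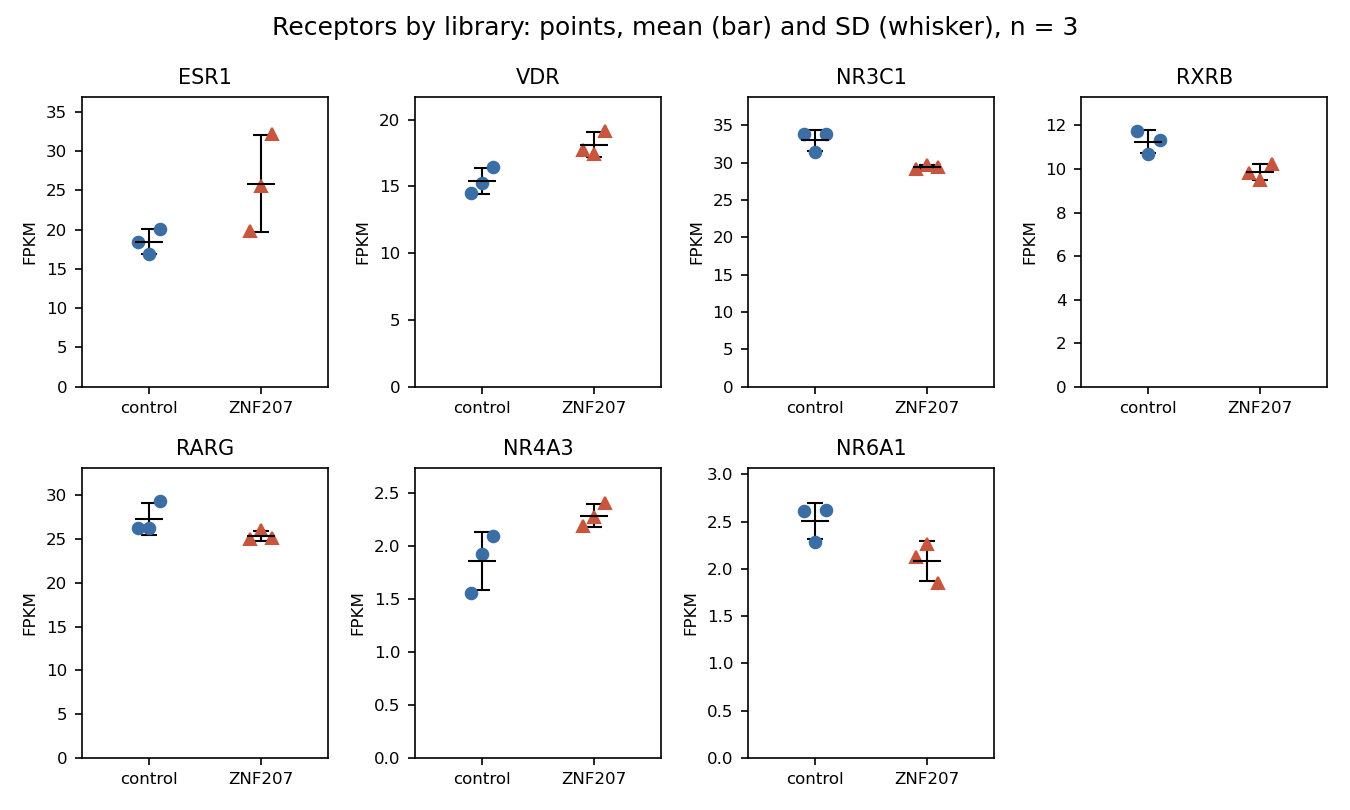
FPKM in each library (points), mean (bar) and SD (whiskers), n = 3 per group, for the 7 receptors with an unadjusted p under 0.05 or with groups that did not overlap; axes start at 0. ESR1 is the one panel where the groups overlap, and its overexpression values spread from 19.8 to 32.2 FPKM.

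Markers of the line were measured beside these values. All 11 luminal markers were at 1 FPKM or more in every library, and so were 6 of 9 luminal apocrine markers, while TFAP2B, PIP and AZGP1 stayed under 1 FPKM throughout. MDA-MB-453 is generally described as lacking oestrogen and progesterone receptors. The PGR transcript was low in these libraries. The ESR1 transcript, at 16.9 FPKM or more in every one, goes against that description as far as RNA can show it. Receptor protein was not measured. The oestrogen-responsive gene TFF1 was also high, at 1087, 1198 and 1118 FPKM in controls and 992, 1002 and 919 FPKM in overexpression libraries, and GREB1 lay between 48.0 and 59.4 FPKM in all 6. PDZK1, another marker of oestrogen receptor positive cells, was at 0.579 to 1.08 FPKM. A further 3 genes were chosen after their values were seen. CDH1, the epithelial cadherin, was between 189.9 and 215 FPKM in all 6 libraries. CDKN2A, a cell cycle inhibitor, and MTAP, its neighbour that is deleted with it in some tumours, did not exceed 1.65 and 0.553 FPKM. The identity of the cells is in doubt from the ESR1, TFF1 and GREB1 values, and it was not tested. Because of how they were chosen, CDH1, CDKN2A and MTAP are given as values only and add no support to that doubt. Every receptor level given here is that of the cells as labelled.

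Summed luminal markers were 7457 to 7817 FPKM in controls and 7169 to 7203 FPKM in overexpression libraries, and basal markers summed to 12.4 to 14.5 and 10.2 to 12.3 FPKM. Both sums were lower in overexpression libraries without overlap. The luminal sum is carried by abundant keratins such as KRT8, and of the 11 luminal markers 5 had log2 changes above 0 and 6 below 0. Apocrine markers summed to 274 to 309 and 306 to 352 FPKM. The part of these differences in the receptor values was not tested. Of 6 immune markers 0 reached 1 FPKM in every library, and of 4 endothelial markers 0 reached it in any. In bulk RNA fewer cells of a kind and less RNA per cell cannot be told apart.

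In the thyroid hormone and retinoic acid receptor group, all 4 tested members had estimates below 0, with a median log2 change of -0.10. Their share of receptor FPKM was 18.2% to 18.6% in controls and 16.6% to 17.8% in overexpression libraries, without overlap. A share also falls when other receptors rise. The summed FPKM of the group itself overlapped, at 83.2 to 88.0 in controls and 79.6 to 84.8 in overexpression libraries. RARA was at 51.6, 49.7 and 54.2 FPKM in overexpression libraries, around the narrow control range of 52.4 to 54.1 FPKM, and its change was -0.04 (adjusted p = 0.816). RARG, the gamma form that is prominent in epithelia, was at 26.3, 26.3 and 29.4 FPKM in controls and 25.1, 26.1 and 25.1 FPKM in overexpression libraries. The groups parted by a small gap between 26.1 and 26.3 FPKM, with a change of -0.10 (SE 0.07, adjusted p = 0.605) that was -0.05 without control replicate 3. RARB, itself a target of retinoic acid, was listed at 0 in all but 1 library, where it reached 0.0461 FPKM.

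THRA, the thyroid hormone receptor alpha, was at 3.33, 3.74 and 3.78 FPKM in controls and at 3.01, 3.00 and 3.91 FPKM in overexpression libraries. The groups overlapped through overexpression library 3, and the change was -0.11 (adjusted p = 0.788). THRB was lower, with 1.24 to 2.31 FPKM in controls and 0.837 to 1.58 FPKM in overexpression libraries, and reached 1 FPKM in 5 of 6 libraries. NR1D1, which overlaps THRA on the other strand, is described below with the clock receptors.

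VDR and the liver X receptors were the group whose 3 tested members all had estimates above 0, with a median of 0.14. Their share of receptor FPKM was 14.0% to 15.4% in controls, and 15.6% to 16.0% with ZNF207. The summed FPKM of this group overlapped, at 63.5 to 72.9 in controls and 72.7 to 76.7 with ZNF207. VDR, the vitamin D receptor, stood at 14.5, 15.2 and 16.5 FPKM in controls and 17.7, 17.4 and 19.2 FPKM in overexpression libraries. Each overexpression library lay above each control, by at least the step from 16.5 to 17.4 FPKM. The means were 15.4 ± 0.987 and 18.1 ± 0.934 FPKM (SD, n = 3 each), and the log2 change was 0.22 (SE 0.08, 95% interval 0.05 to 0.39, adjusted p = 0.291).

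NR1H2 was at 44.1, 47.6 and 47.4 FPKM in overexpression libraries, against 40.9 to 47.0 FPKM in controls, so the groups overlapped. NR1H3, the liver X receptor alpha, which is more restricted to liver, fat and macrophages, was at 8.05 to 10.6 FPKM in controls and 9.66 to 10.9 FPKM in overexpression libraries. The beta form exceeded the alpha form by 4.44 to 5.08 times in controls and 4.03 to 4.93 times with ZNF207. The bile acid receptor NR1H4 and the xenobiotic receptor NR1I2 were listed at 0 in all 6 libraries. NR1I3, the other xenobiotic receptor, was listed at 0 in all but overexpression library 3, at 0.194 FPKM.

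Among the PPAR, REV-ERB and ROR genes, 3 tested members had estimates above 0 and 3 below 0, with a median of -0.04 and overlapping shares of receptor FPKM, 7.15% to 8.19% and 7.19% to 7.91%. NR1D2, or REV-ERB beta, a repressor within the circadian clock, led the group at 23.3, 19.4 and 19.8 FPKM in controls and 20.3, 22.4 and 22.7 FPKM in overexpression libraries. NR1D1, or REV-ERB alpha, was lower at 4.95, 4.51 and 5.02 FPKM in controls and 4.39, 3.82 and 4.75 FPKM in overexpression libraries. Both had overlapping groups. The ratio of NR1D2 to NR1D1 was 3.95 to 4.71 in controls and 4.63 to 5.86 with ZNF207.

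The PPAR genes, sensors of fatty acids, were all low. PPARD was at 3.75 to 4.61 FPKM in controls and 4.09 to 4.84 FPKM in overexpression libraries, and PPARA at 1.78 to 2.30 and 1.15 to 2.36 FPKM. PPARG, the regulator of fat cell genes, was between 0.898 and 1.61 FPKM in 5 libraries and at 3.06 FPKM in overexpression library 2. RORA, an activator at the same clock elements as the REV-ERBs, was at 1.72 to 2.36 FPKM in controls and 1.48 to 2.24 FPKM in overexpression libraries. All 4 had overlapping groups, with adjusted p between 0.682 and 0.806.

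The group of retinoid X receptors, TR2 and TR4, COUP-TF and HNF4 genes had 1 estimate above 0 and 6 below 0 among its 7 tested members, with a median of -0.09. It held the largest share of receptor FPKM of the 6 groups, 31.0% to 32.3% in controls and 28.8% to 31.1% in overexpression libraries. RXRA was at 37.1, 37.4 and 36.5 FPKM in overexpression libraries, inside the control range, and its change of 0.00 had a 95% interval of -0.12 to 0.13. RXRB was at 11.8, 10.7 and 11.3 FPKM in controls and at 9.84, 9.51 and 10.3 FPKM in overexpression libraries. All overexpression values were lower than all control values, with a change of -0.17 (SE 0.08, adjusted p = 0.422). The ratio of RXRA to RXRB was accordingly 3.04 to 3.55 in controls and 3.56 to 3.93 in overexpression libraries, with the ranges next to each other and not overlapping. The gamma form, RXRG, did not exceed 0.0467 FPKM.

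NR2F6, a COUP-TF relative, was at 30.8, 40.1 and 33.0 FPKM in controls and 29.5, 36.9 and 32.9 FPKM in overexpression libraries. NR2F2, or COUP-TFII, known from veins, mesenchyme and hormone-responsive tissues, was at 20.8, 18.7 and 16.7 FPKM in controls and 17.8, 18.9 and 16.0 FPKM in overexpression libraries. NR2F1 was near the filter at 0.990 to 1.90 and 1.00 to 1.50 FPKM. All 3 overlapped between groups, and the order NR2F6 over NR2F2 over NR2F1 held in each library.

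The testicular receptors NR2C1 and NR2C2, orphans found in many tissues despite their name, were at similar levels. NR2C1 was at 21.5, 20.6 and 21.1 FPKM in controls and 19.1, 21.1 and 20.4 FPKM in overexpression libraries. NR2C2 was at 22.8, 21.0 and 25.9 FPKM in controls and 20.2, 22.8 and 21.4 FPKM in overexpression libraries. Groups overlapped for both. HNF4A and HNF4G, markers of liver and gut epithelium, stayed below 1 FPKM, HNF4G between 0.302 and 0.869 FPKM and HNF4A at 0.222 FPKM or less. NR2E3, of photoreceptors, did not exceed 0.346 FPKM, and NR2E1, of neural stem cells, was listed at 0 in all libraries.

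**Figure D4:**
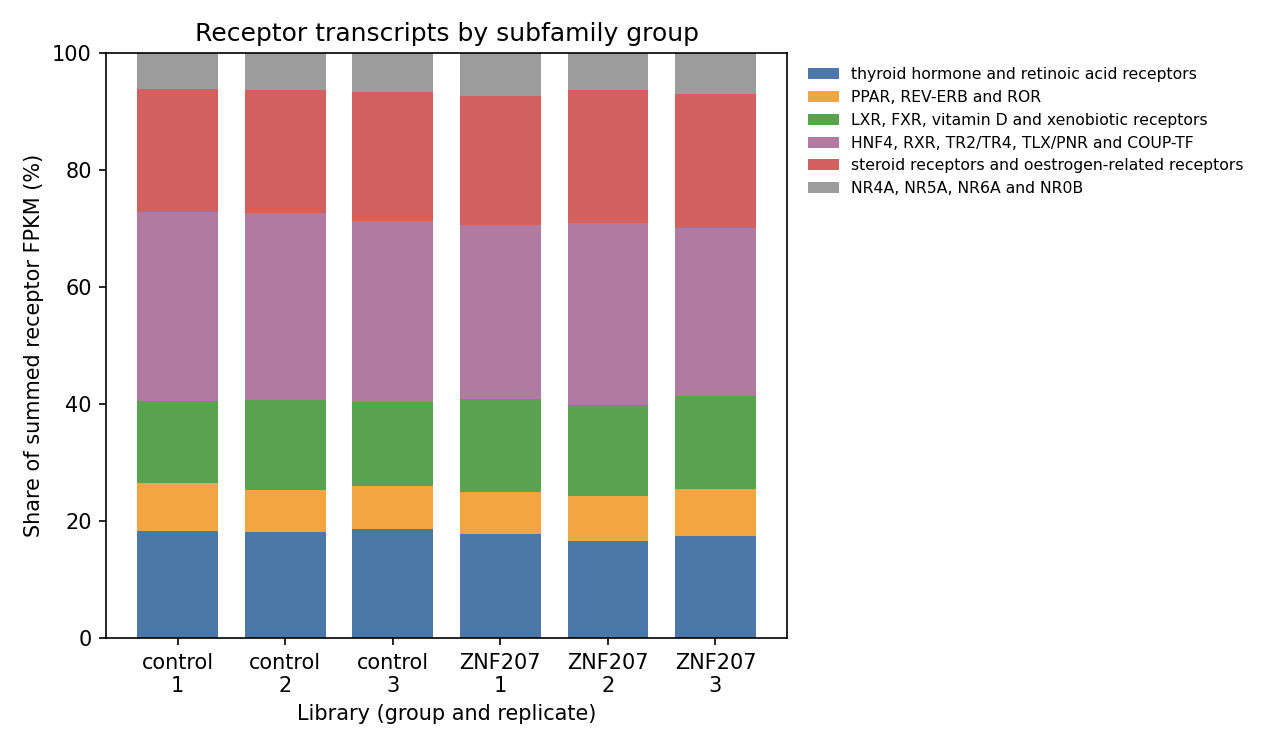
Share of the summed receptor FPKM (%) held by each of 6 subfamily groups in each library, as stacked bars that reach 100%. The retinoid X receptor and COUP-TF group is the largest in all 6 libraries, and the steroid receptor group holds 21.0% to 21.9% in controls and 21.9% to 22.8% with ZNF207.

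The last group joins the NR4A, NR5A, NR6A and NR0B genes. Of its 4 tested members 3 had estimates above 0 and 1 below 0, with a median of 0.15. Its shares of receptor FPKM overlapped, at 6.07% to 6.70% in controls and 6.32% to 7.42% with ZNF207. The 3 estimates above 0 were those of the NR4A genes, immediate-early genes that act without a classical ligand pocket. NR4A1, also called NUR77, was at 15.4, 17.6 and 17.9 FPKM in controls and 19.4, 17.0 and 19.2 FPKM in overexpression libraries, with overlapping groups. NR4A2 was at 7.70 to 8.97 FPKM in controls and 8.29 to 10.3 FPKM in overexpression libraries, also overlapping. NR4A3 was at 1.56, 1.92 and 2.10 FPKM in controls and 2.19, 2.28 and 2.40 FPKM in overexpression libraries. Its groups did not overlap, with a gap from 2.10 to 2.19 FPKM, and the change was 0.21 (SE 0.14, adjusted p = 0.595). Without control replicate 1, the lowest library, the change was 0.13.

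NR6A1, the germ cell nuclear factor, was the tested member of this group with an estimate below 0. It was at 2.61, 2.29 and 2.62 FPKM in controls and 2.13, 2.26 and 1.85 FPKM in overexpression libraries. The overexpression values were the lower ones throughout, by as little as the step from 2.29 to 2.26 FPKM, and the change was -0.19 (SE 0.13, adjusted p = 0.609). NR5A2, of liver and ovary, was between 0.105 and 0.402 FPKM, and NR5A1, of steroid-producing tissues, did not exceed 0.0539 FPKM. NR0B2 was at 0.0433 FPKM in 1 control and listed at 0 elsewhere, and NR0B1 was listed at 0 throughout. ESRRB, ESRRG and RORB, the receptors not yet named, stayed at or below 0.169, 0.432 and 0.199 FPKM. In all, 4 receptors were listed at 0 in every library, and no untested receptor exceeded 0.969 FPKM. A value of 0 or near 0 here does not show that a gene was silent, since read depth is unknown.

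Receptors act through coregulators and target genes, so 13 lists of these were read from the same fit, with receptors left out. Of 179 distinct list genes tested, 0 were called by limma, the lowest adjusted p being 0.0541. At an unadjusted p under 0.05 there were 36, or 20.1%, beside 12.1% of all tested genes, 14 of them higher and 22 lower. Over all tested genes 5.08% were higher and 7.03% lower at that level, and the groups of 18.0% did not overlap. By list the share at that level ran from 0% for the thyroid hormone pathway to 36.8% for oestrogen receptor targets and immediate-early genes. The counts of each list below stand beside these shares of all genes. The lists were made from general knowledge and some share genes, and membership does not show that a receptor controls a gene in these cells.

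**Figure D5:**
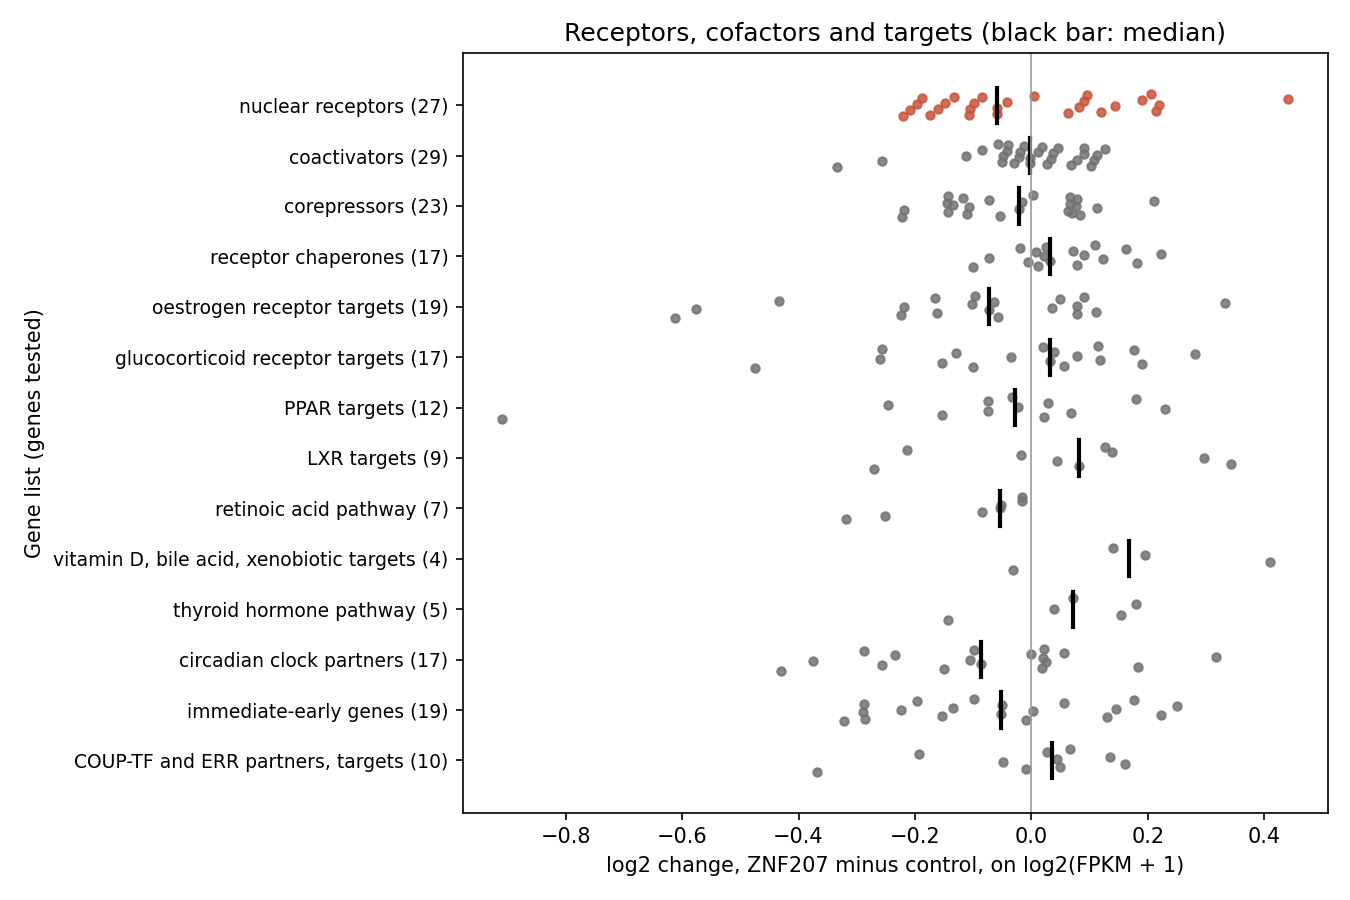
Log2 change of FPKM + 1, overexpression minus control, for each tested gene (point) of the nuclear receptors and of 13 lists of coregulators, partners and targets, with the median of each list as a black bar. Medians lie between -0.09 for the clock partners and 0.17 for the vitamin D, bile acid and xenobiotic targets, and single genes spread more widely than the receptors.

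Among 29 coactivators 0 were called, 2 had an unadjusted p under 0.05, both lower, and the median change was 0.00. CITED2, a partner of the acetyltransferases CREBBP and EP300, was at 97.8, 117 and 102 FPKM in controls and 86.1, 88.3 and 75.7 FPKM in overexpression libraries (log2 change -0.33, adjusted p = 0.135), without overlap. PELP1, a scaffold for steroid receptors, had a change of -0.26 (adjusted p = 0.361), which was -0.15 without overexpression replicate 3. Of 23 corepressors 0 were called, with 1 gene on each side at an unadjusted p under 0.05 and a median of -0.02. PHB2 had a change of -0.12 (adjusted p = 0.382). The 17 chaperones that fold steroid receptors included 0 called and 2 higher at an unadjusted p under 0.05, DNAJA1 (0.18, adjusted p = 0.23) and HSPA4 (0.12, adjusted p = 0.382), with a median of 0.03.

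The ESR1 estimate was above 0, and 12 of 19 oestrogen receptor targets had estimates below 0. Of these 19, 0 were called, and 1 was higher and 6 lower when p was left unadjusted (under 0.05), with -0.07 as the median. Together these were 36.8% of the 19, beside 12.1% of all tested genes. TFF3, a secreted trefoil peptide, was at 29.1, 37.0 and 28.9 FPKM in controls and 20.0, 22.5 and 18.4 FPKM in overexpression libraries (log2 change -0.61, SE 0.11, adjusted p = 0.0618). Its relative TFF1, given above, had a change of -0.22 (adjusted p = 0.175). ABAT, an enzyme of GABA breakdown, went the other way, at 27.2, 25.4 and 29.3 FPKM in controls and 34.6, 32.3 and 37.1 FPKM in overexpression libraries (0.33, SE 0.08, adjusted p = 0.116). The groups of TFF3, TFF1 and ABAT did not overlap. Neither did those of AREG, CCND1, IGFBP4 and STC2, each lower in overexpression libraries. These are the same genes that had an unadjusted p under 0.05, 36.8% of the 19, beside 18.0% of all tested genes without overlap. TFF3 and ABAT were named for their small p, so a gap between their groups was likely beforehand.

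Of 17 glucocorticoid receptor targets 0 were called, while 2 had an unadjusted p under 0.05 on the higher side and 1 on the lower, and the median was 0.03. NFKBIA, the inhibitor of NF-kB, was at 117, 109 and 108 FPKM in controls and 134, 131 and 140.3 FPKM in overexpression libraries (0.28, SE 0.05, adjusted p = 0.0848), without overlap. It is also a target of NF-kB itself. ZFP36, which destabilises inflammatory transcripts, had a change of 0.18 (adjusted p = 0.271). The 7 retinoic acid pathway genes tested all had estimates below 0, with a median of -0.05 beside -0.01 over all tested genes. Some were close to 0, with RDH10 and RDH11 each at -0.02. Of the 20 listed members 19 were found by name, RARRES3 being the missing symbol, and RARB was left out as a receptor. The remaining members were under the filter. Of the 7, 0 were called and 1 was at an unadjusted p under 0.05, the binding protein CRABP1 at -0.32 (adjusted p = 0.408), or -0.19 without overexpression replicate 2. DHRS3, a retinaldehyde reductase, had a change of -0.25 (adjusted p = 0.468).

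Lipid sensing lists were mixed. Of 12 PPAR targets 0 were called, with 2 genes on each side at an unadjusted p under 0.05. ANGPTL4, an inhibitor of lipoprotein lipase that is also known as a hypoxia-responsive gene, was at 27.1, 39.6 and 25.7 FPKM in controls and 16.9, 19.2 and 11.8 FPKM in overexpression libraries (-0.91, SE 0.19, adjusted p = 0.0958). CPT1A, which admits fatty acids to mitochondria, was at 36.1, 33.8 and 38.1 FPKM in controls and 43.8, 40.3 and 43.1 FPKM in overexpression libraries (0.23, SE 0.07, adjusted p = 0.205). Neither had overlapping groups, and they lay on opposite sides of 0. Of 9 liver X receptor targets 0 were called, an unadjusted p under 0.05 was seen on the higher side for 2 and on the lower for 1, and the median was 0.08. ABCG1, a cholesterol exporter, had a change of 0.34 (adjusted p = 0.234) and SCD, a fatty acid desaturase, one of -0.21 (adjusted p = 0.127) that was -0.14 with quantile scaling.

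The lists around VDR, the thyroid hormone receptors and the NR2F and ESRR genes were short. Of 15 vitamin D, bile acid and xenobiotic targets 4 were tested, namely ABCC2, ABCC3, CYP27B1 and UGT1A1. The others, CYP24A1 among them, were under the filter. Of the 4, 0 were called, and the median was 0.17. The transporter ABCC3 was the 1 gene with an unadjusted p under 0.05, and was higher, at 11.1, 9.50 and 11.9 FPKM in controls and 17.0, 12.3 and 15.0 FPKM in overexpression libraries (0.41, SE 0.12, adjusted p = 0.222), without overlap, and ABCC2 had a change of 0.14 (adjusted p = 0.722). The ABCC2 change was 0.07 without control replicate 2, 0.08 without overexpression replicate 1 or 3, 0.26 without overexpression replicate 2 and 0.09 with library weights. The 5 thyroid hormone pathway genes had 0 called by limma and 0 at an unadjusted p under 0.05. Of the 5 estimates, 4 were above 0 (median 0.07) while those of THRA and THRB were below 0. ME1, a malic enzyme, had a change of 0.18 (adjusted p = 0.503), which was 0.10 when control replicate 1 was omitted and 0.09 when overexpression replicate 3 was. HR, a corepressor, had one of -0.14 (adjusted p = 0.57), which was -0.05 without overexpression replicate 1. Of 10 COUP-TF and oestrogen-related receptor partners and targets 0 were called. There the angiogenic factor VEGFA, also known as a hypoxia-responsive gene, was at 136, 163 and 132 FPKM in controls and 115, 117 and 101 FPKM in overexpression libraries (-0.37, adjusted p = 0.127). IDH3A, an enzyme of the citric acid cycle, had a change of 0.16 (adjusted p = 0.365).

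Of 17 clock genes that work with the REV-ERB and ROR receptors 0 were called, 0 were higher and 4 were lower at an unadjusted p under 0.05, and the median was -0.09. CIART, a repressor of the clock activators, was at 45.2, 46.1 and 41.3 FPKM in controls and 34.7, 33.8 and 33.0 FPKM in overexpression libraries (-0.37, SE 0.06, adjusted p = 0.0541), without overlap. CSNK1E, a kinase of the PER proteins, was at 55.3, 55.1 and 52.0 FPKM in controls and 46.1, 45.1 and 46.3 FPKM in overexpression libraries (-0.23, SE 0.05, adjusted p = 0.12), also without overlap. Of 19 immediate-early genes often induced together with the NR4A receptors 0 were called, 7 had an unadjusted p under 0.05, of which 3 were higher, and the median was -0.05. IER3, an early survival gene, had a change of -0.29 (adjusted p = 0.13) and NFIL3, also on the clock list, one of -0.29 (adjusted p = 0.234). Estimates were above 0 for 7 of these 19 genes and for all 3 NR4A receptors.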

How the data were processed

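Values were analysed as deposited by the authors: FPKM per gene, 1 column per library. The submitters' processing notes name RSEM 1.3.1, Bowtie2, DESeq2 1.4.5 and hg38. Their roles, the annotation and the strand setting were not given in the sources used here. Columns were matched to samples by their names (NC as control, 207 as ZNF207), and every single-library value depends on that match. The table has 60658 rows for 60569 names, and where a name had several rows the one with the highest mean was kept. Read depth is unknown: low values shared no step that whole reads would leave (at most 0.645% of 2760 or more genes under 0.3 FPKM shared a ratio, tolerance 0.1%). FPKM summed to 590000 to 613000 per library, with 13061 to 13231 genes at 1 FPKM or more. Between libraries Pearson's r across genes was 0.9845 to 0.9912, and no pair had more than 8 identical values.

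The 13185 genes at 1 FPKM or above in 3 or more of the 6 libraries were fitted as log2(FPKM + 1) with limma 3.58.1 in R 4.3.3 (two-sided, mean-variance trend, Benjamini-Hochberg over all tested genes, threshold 0.05), after the procedure was tested on simulated data. Adjusted p-values are from this fit unless another setting is named beside them. They set each difference between groups against the spread between these libraries.

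Named with values in every library were the 12 receptors highest in controls, those with an unadjusted p under 0.05 or groups without overlap, and ESR1, ESR2, PGR, NR3C1, NR3C2, THRA and NR1D1. Of each other list the 2 genes with the smallest p were taken, of which 1 is not reported here; TFF1 and GREB1 were named as markers, with PDZK1. Other receptors are given by range or single values. The receptors, lists and naming rule were chosen with earlier results of these data known, so none of them is independent support. Alternatives were other pseudocounts, filters, scalings, variance models and library weights, a replicate block, summed duplicate rows, and each library left out.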

Additional observations from a re-analysis of the deposited data

How the results depend on the processing

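Under the 18 alternatives the number of receptors called stayed at 0 by limma. The number at an unadjusted p under 0.05, 3 as reported, was 5 without a variance trend and ran from 1 (without control replicate 1) to 4 when 1 library was left out. The log2 change of ESR1 ran from 0.28 to 0.61 (adjusted p 0.105 to 0.613), that of VDR from 0.18 to 0.26 (0.149 to 0.601), that of NR3C1 from -0.20 to -0.14 (0.196 to 0.55) and that of RXRB from -0.21 to -0.15 (0.283 to 0.628). RARG ran from -0.13 to -0.05, NR6A1 from -0.26 to -0.13 and NR4A3 from 0.13 to 0.29. The number of genes called over the whole table, 28 as reported, was 4 without a filter, 14 with a filter on a mean FPKM of 0.5, 17 with median-of-ratios scaling and 5 without a variance trend. It ran from 7 (without overexpression replicate 3) to 33 (without control replicate 1) with 1 library omitted, a fit on fewer samples. Apart from the fewer samples, the cause of these shifts was not tested.

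Replicate numbers are shared between the groups, but nothing in the labels says that they mark a shared culture or day. Deviations of same-numbered libraries 1, 2 and 3 correlated at 0.14, 0.01 and 0.17 across genes. Differently numbered libraries correlated at -0.21 to 0.07, so numbers 1 and 3 stood above all of these. Number 2 did not, and control library 2 correlated best with overexpression library 1 (0.07). The numbers were not taken as pairs, and whether they mark a shared culture or day cannot be told from these values. With a replicate block 145 genes and 0 receptors were called. Of 612 values of the 34 tested genes taken by the rule, 607 kept their direction and side of the threshold and 0 reversed. The other 5 passed the threshold under the replicate block: ABAT (adjusted p = 0.0349), ANGPTL4 (0.013), CIART (0.0252), TFF3 (0.0125) and VEGFA (0.0343).

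TPM, median-of-ratios and quantile scaling moved the median of all genes by 0.009 to 0.017. Unknown read depth limits what can be said of the 19 untested receptors and of those near 1 FPKM, and 3 libraries per group limit the intervals.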

Other observations

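Besides the receptor genes, 14 rows of the table carry a receptor's name with a suffix, for antisense transcripts, an intronic transcript and pseudogenes. Of these, 6 were listed at 0 in all libraries. The highest value was 1.21 FPKM, of NR2F1-AS1 in control library 3, the library in which NR2F1 itself was lowest at 0.990 FPKM. In the other libraries NR2F1-AS1 was at 0.144 to 0.446 FPKM. NR2F2-AS1 was at 0.205, 0.658 and 0.452 FPKM in controls and 0.852, 0.720 and 0.436 FPKM in overexpression libraries, with overlapping groups. RORA-AS1 was at 0.277 to 0.702 and 0.303 to 0.397 FPKM. RARA-AS1, which shares exonic bases with RARA, reached 0.0268 FPKM in 1 control and was listed at 0 elsewhere. Reads of a receptor and of its antisense partner cannot be told apart where strand was not used in counting.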
